A study of Oryza sativa with 2 samples.

Results

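The loci described here are the short RNAs of rice (Oryza sativa) that lie in small groups on the nuclear chromosomes: 128 of the 1349 loci listed by the authors, 70 to 99 nt long, each within 500 nt of a neighbour on the same strand, in 58 clusters of 2 to 4 loci. They were chosen by chromosome, length and spacing over both lists together, without their read numbers, although a locus is listed only where it had reads, and 7 further loci that met these terms were left out because they lie in 3 nuclear stretches set aside beforehand. RNA of 50 to 500 nt was ligated to adaptors and sequenced by pyrosequencing without amplification, in 1 library per stage. Stage 2 is labelled anther, pistil and grouting embryo, and stage 1 is labelled coleoptiles, radicals, shoot and tillering leaves; the sources used here do not say whether tissues were pooled, nor the cultivar and age of the plants. The stage 2 list held 117798 reads at 1163 loci and the stage 1 list 80651 reads at 838 loci.

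Loci of this size in tight rows are where box C/D small nucleolar RNAs (snoRNAs) are usually found in plants. Such RNAs form a ribonucleoprotein with fibrillarin and guide, by base pairing, the methylation of ribose at chosen positions of ribosomal RNA. Plant snoRNA genes are known to stand in rows that are transcribed as 1 precursor, either from their own promoter or from within an intron of a host gene, and the single RNAs are then cut out and trimmed. The files name loci only by number (JNnc_loci followed by 4 digits) and give no sequence, gene or class, so no member is called a snoRNA here, and no sequences were used.

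The label was therefore set against the only annotation used, RefSeq genes of assembly ASM3414082v1, through lengths and through the distances between neighbouring genes. That table holds 611 snoRNA genes, of which 223 are 70 to 99 nt long, and 190 of these 223 have another snoRNA gene within 500 nt. For 18 of the 32 clusters of 3 or 4 loci, snoRNA genes on the same chromosome stood at the same distances from each other as the loci, with every start within 5 nt. On the 11 other nuclear chromosomes the same search matched in 7 of 352 comparisons. No cluster matched tRNA or snRNA genes, on its own chromosome or on the others. How often those genes stand in such rows was not counted, so this lack of matches is not read as a result. The 18 clusters hold 54 of the 128 members. The match is one of spacing, on another assembly and without strand, and pairs were not searched because a single distance can match by accident. It was chosen after the data were seen.

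Members were evenly split between the strands, 64 on each, and lay on all 12 nuclear chromosomes, with most on chromosome 3 (25) and chromosome 5 (22) and fewest on chromosome 9 (3). Their median length was 83 nt (quartiles 78 and 89). Between adjacent members the gap had a median of 143.5 nt over 68 pairs (quartiles 101.5 and 236, range 62 to 478), and 46 of the 68 gaps were under 200 nt. Clusters spanned 233 to 1118 nt, with a median of 551. In 31 of the 58 clusters every locus was a member, while the other clusters also held 34 loci outside the size range, 29 of them 100 to under 200 nt long, 4 shorter than 70 nt and 1 of 200 nt or more.

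The edges of the size range were compared by summed reads. The 5 members of 70 to 72 nt had 909 reads in stage 2 and 258 in stage 1, whereas the 4 nuclear loci of 67 to 69 nt in small clusters had 13 and 0. JNnc_loci0143 alone held 850 of the 909 and 245 of the 258 reads, and the other 4 members had 59 and 13. At the upper edge, the 8 members of 97 to 99 nt had 1123 reads in stage 2 and 566 in stage 1, and the 8 such loci of 100 to 102 nt had 1394 and 730.

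Most members were seen at both stages. Of the 128, 118 (92.2%) were listed in both libraries, against 48.3% of all 1349 loci. Only 8 had reads in stage 2 alone, and 2 in stage 1 alone. Members were also deeper than most loci, since 107 of 128 (83.6%) had at least 20 reads over both libraries, against 35.8% of all loci. The median member had 106 reads in stage 2 and 48 in stage 1, and the median locus of the whole lists had 3 and 2. Depth and listing are not separate facts: of the 21 members with fewer than 20 reads, 12 were in both lists. Among loci with at least 20 reads, 106 of the 107 members and 476 of all 483 loci were in both lists. At that depth the members thus did not stand out.

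Together the members took 22.5% of stage 2 reads (26551 reads; 22.3 to 22.8, exact Clopper-Pearson interval at 95%), against 16.6% in stage 1 (13368 reads; 16.3 to 16.8). The stage 2 to stage 1 ratio of reads per 1000000 library reads (RPM) was 1.36 (95% exact interval 1.33 to 1.39). All intervals cover counting error only, because a single library per stage allows neither a replicate error nor a test between stages, and a difference between the libraries is a difference between 2 samples labelled with several tissues each. In RNA of whole tissues, fewer cells of a type and less RNA per cell cannot be told apart. Since the median locus of the lists with at least 20 reads stood at a ratio of 1.39 (log2 0.47), summaries and some single ratios are also given relative to that median. Relative to it the members as a whole were at 0.980 (0.960 to 1.0005), an interval that holds 1.

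A few members carried much of the signal. The 4 with most reads held 24.2% of the members' reads in stage 2 and 19.9% in stage 1, and the 12 with most reads held 45.6% and 39.8%. Of these 12, 11 were also among the 12 highest per nt of length, so their order is little affected by size. The most abundant was JNnc_loci0986 (89 nt, chromosome 8, 22772697 to 22772785, minus strand), with 20994 RPM in stage 2 (20174 to 21838) and 9188 in stage 1 (8538 to 9874), 2.28-fold higher in stage 2 (2.10 to 2.48). Its cluster mate JNnc_loci0988 (83 nt) had 414 reads in stage 2 and 139 in stage 1, at a similar ratio of 2.04 (1.68 to 2.49). The locus between them, JNnc_loci0987, is 138 nt long and outside the size range, and was lower in stage 2, with 92 reads against 119 and a ratio of 0.529 (0.399 to 0.701).

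JNnc_loci0030 (84 nt, chromosome 1, 9654907 to 9654990, minus strand) followed, with 1010 reads in stage 2 and 994 in stage 1. It was the strongest member in stage 1 and lower in stage 2, at 8574 RPM against 12325 and a ratio of 0.696 (0.637 to 0.760). Its neighbour JNnc_loci0029 (91 nt) had 257 and 264 reads and a ratio of 0.667 (0.559 to 0.794), while the remaining locus of that row, JNnc_loci0031 (92 nt), had only 6 and 4 reads.

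JNnc_loci0818 (83 nt, chromosome 6, 29206568 to 29206650, plus strand) had 14262 RPM in stage 2 (13588 to 14960) and 3373 in stage 1 (2984 to 3798). It was 4.23-fold higher in stage 2 (3.72 to 4.82), the highest ratio among the 12. The other locus of its cluster, JNnc_loci0819, is 101 nt long and did not share this balance, with 500 reads in stage 2 and 395 in stage 1 and a ratio of 0.867 (0.758 to 0.991).

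The rest of the 12 fell on both sides of the median locus. JNnc_loci0695 (94 nt, chromosome 5) had 1270 reads in stage 2 and 286 in stage 1, a ratio of 3.04 (2.67 to 3.47). JNnc_loci0143 (72 nt, chromosome 1) had 850 and 245 reads at 2.38 (2.06 to 2.75), and JNnc_loci0317 (77 nt, chromosome 3) had 677 and 201 at 2.31 (1.97 to 2.71). These 3 lay above the median locus also after scaling. JNnc_loci0045 and JNnc_loci0046 (chromosome 1), JNnc_loci0445 (chromosome 3) and JNnc_loci0659 (chromosome 5) were between 1.12 and 1.51. JNnc_loci0644 (73 nt) and JNnc_loci0672 (76 nt), both on chromosome 5, were lower in stage 2 per library read, with 567 and 400 reads against 463 and 440 and ratios of 0.838 (0.740 to 0.95) and 0.622 (0.542 to 0.714).

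**Figure D1:**
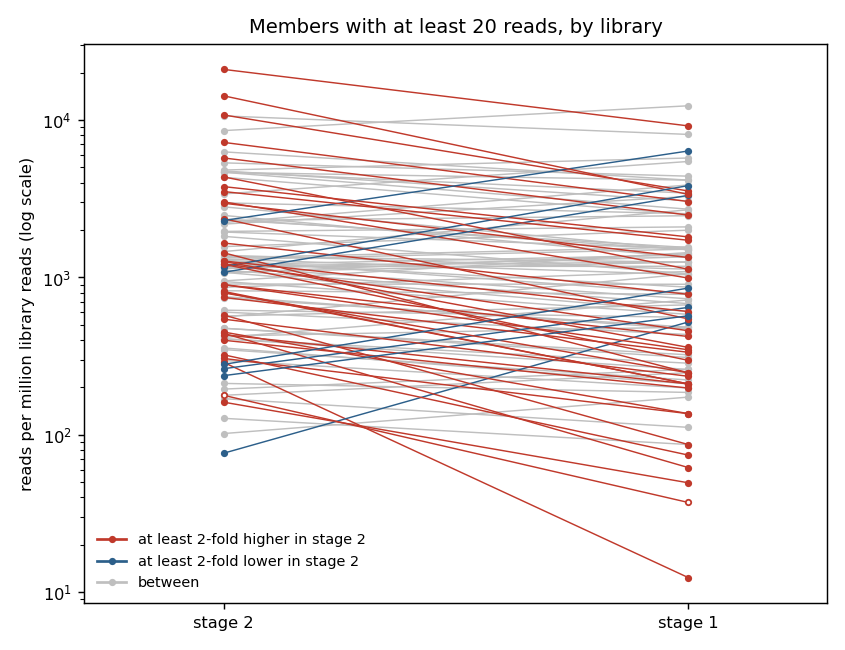
Reads per 1000000 library reads (log axis) of the 107 members with at least 20 reads over both libraries, in stage 2 (left) and stage 1 (right), 1 line per locus, with red lines for the 34 members at least 2-fold higher in stage 2 and blue lines for the 7 at least 2-fold lower. The open circle marks JNnc_loci0263, which had 0 stage 1 reads and is drawn at the floor of 3 reads. Most lines slope gently, and the blue lines run from 76.4 to 2301 RPM in stage 2, below the most abundant members.

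Over the 107 members that reached 20 reads, the log2 ratio had a median of 0.58 (0.5 reads added to each count), a ratio of 1.5, with quartiles of -0.21 and 1.10. In stage 2, 34 of these members (31.8%) stood at 2-fold or more above stage 1, against 32.9% of the 483 loci of that depth in the lists. A further 7 (6.54%) were at least 2-fold lower, against 11.6%. Relative to the median locus the numbers were 18 higher and 15 lower, against backgrounds of 18.2% and 22.2%. The share higher was thus close to that over all loci under either scaling. The counting interval lay above 1 for 55 members (48.4% of all loci) and below 1 for 18 (22.8% of all loci). Set against the median locus, it lay above for 33 members (background 30.4%) and below for 34 (background 34.6%).

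By length, the 41 members of 70 to 79 nt had a ratio of summed reads of 1.11, the 59 of 80 to 89 nt a ratio of 1.51 and the 28 of 90 to 99 nt a ratio of 1.39. Of the 13187 stage 2 and 5995 stage 1 reads at 80 to 89 nt, a few loci held much. JNnc_loci0986 had 2473 and 741, JNnc_loci0818 had 1680 and 272, and JNnc_loci0030, lower in stage 2, had 1010 and 994. In the same order of lengths, the median log2 ratios of members with at least 20 reads were 0.32, 0.62 and 0.44. The number of loci in a cluster went with little difference, since the median was 0.60 for 29 members in clusters of 2, 0.63 for 38 in clusters of 3 and 0.50 for 40 in clusters of 4.

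Among members with at least 20 reads, the highest ratios belonged to loci scarce in stage 1. JNnc_loci0263 (75 nt, chromosome 2) had 21 reads in stage 2 and 0 in stage 1. This was 4.79-fold higher against a floor of 3 reads in that library, and the interval of its ratio started at 3.57. JNnc_loci0002 (84 nt, chromosome 1) had 34 reads in stage 2 and 1 in stage 1, a ratio of 23.3 whose interval ran from 3.91 to 946. JNnc_loci0265 (76 nt, chromosome 2) had 52 and 5 reads at 7.12 (2.86 to 22.8), and JNnc_loci0195 (83 nt, chromosome 2) had 68 and 7 at 6.65 (3.06 to 17.2). JNnc_loci0441 (85 nt, chromosome 3) had 169 and 20 reads at 5.79 (3.63 to 9.71), and JNnc_loci1101 (96 nt, chromosome 10) had 38 and 6 at 4.34 (1.82 to 12.6). All 6 intervals lay above the median locus as well, and the wide ones show how little the order among them means. The 6 were picked as the highest ratios, so their place above the median follows in part from the choice. Each reached the minimum of 20 reads through stage 2 alone, and only JNnc_loci0441 had 20 stage 1 reads.

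Among members with at least 20 reads, the lowest ratio was that of JNnc_loci0159 (79 nt, chromosome 2), with 9 reads in stage 2 and 42 in stage 1, at 0.147 (0.0628 to 0.306). JNnc_loci0936 (82 nt, chromosome 8) had 138 reads in stage 2 and 309 in stage 1 at 0.306 (0.248 to 0.375). JNnc_loci0589 (73 nt, chromosome 4) had 127 and 268 reads at 0.324 (0.261 to 0.402). Next came JNnc_loci1269, JNnc_loci0697 and JNnc_loci0926, at 0.327 (0.209 to 0.503), 0.362 (0.311 to 0.420) and 0.408 (0.253 to 0.649), and JNnc_loci1265 was the last of the 7 below 0.5. Each of these 7 shared its cluster with a member whose interval lay above 1, a count made after the values were seen. Such a cluster mate was common, at 61 of the 95 members that had another member of at least 20 reads in their cluster. Relative to the median locus it was found for 5 of the 7, and for 37 of the 95.

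Members of a cluster often differed in their balance between libraries. In 37 clusters at least 2 members had 20 reads or more, and the fold between their highest and lowest ratio had a median of 2.02 (range 1.01 to 31.0). It was 2-fold or more in 19 of the 37. In 20 clusters the intervals of 2 members lay apart, and in 12 of them 1 member had an interval above 1 and another below 1. Relative to the median locus, 9 clusters had members with intervals on opposite sides. In 4 clusters the intervals of all such members lay above the median locus, and in another 4 all lay below it. The same counts were not made for other clusters or for unrelated loci, so they are not read as a trait of these rows. A fold between highest and lowest also tends to grow with the number of members compared.

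**Figure D2:**
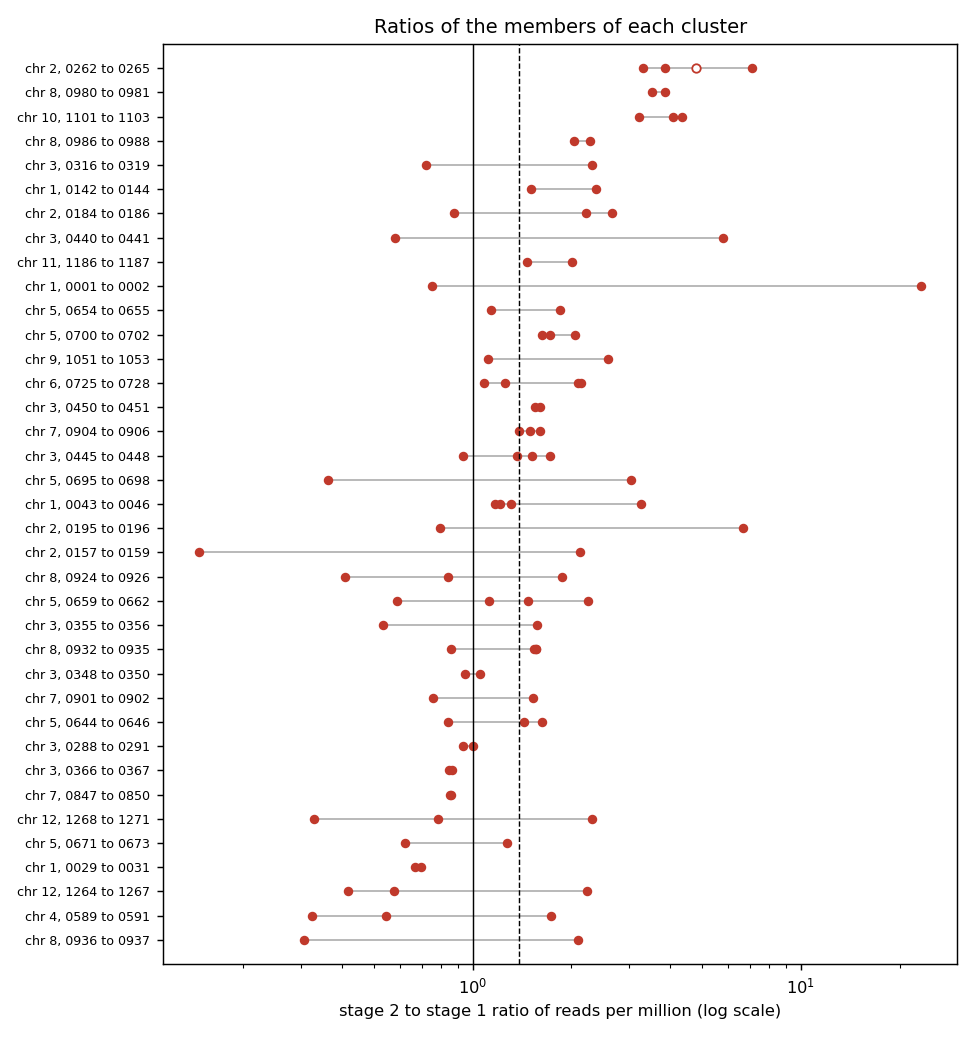
Stage 2 to stage 1 ratio of RPM (log axis) for each member with at least 20 reads in the 37 clusters with 2 or more such members, ordered by the ratio of the members' summed reads, with the solid line at 1 and the dashed line at the median locus of 1.39. The open circle is the ratio against the floor of 3 stage 1 reads. Some rows are tight, as in the cluster of JNnc_loci0029 to JNnc_loci0031, and others cross both lines, as in that of JNnc_loci0695 to JNnc_loci0698.

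Over the 53 pairs of adjacent members with at least 20 reads each, 25 pairs had both members on the same side of the median locus. The log2 ratios of the upstream and the downstream member correlated across pairs with Pearson r of 0.13 and Spearman rho of 0.05. This is a description over loci that share both libraries, and some loci enter 2 pairs. A weak correlation in counts of this depth is not read as absence of a relation.

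**Figure D3:**
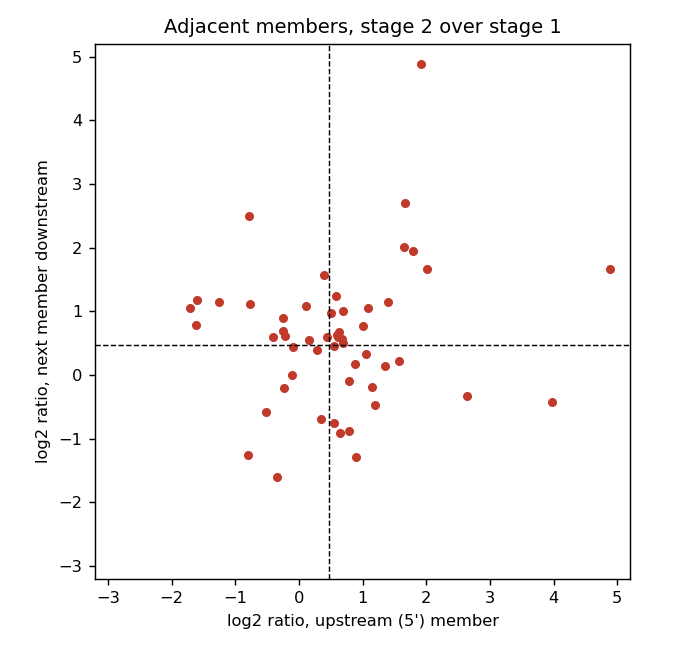
Log2 ratio (stage 2 over stage 1, 0.5 reads added) of each member with at least 20 reads, on the x axis, against that of the next member downstream on its strand, on the y axis, for 53 adjacent pairs, with dashed lines at the median locus of 0.47. The points lie in all 4 corners, and 25 pairs lie in the lower left or upper right.

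A strong contrast between abundant loci of 1 row lay on the minus strand of chromosome 5 (26212892 to 26213525). JNnc_loci0697 (79 nt) had 2301 RPM in stage 2 (2035 to 2591) and 6361 in stage 1 (5822 to 6936), while JNnc_loci0695 (94 nt), the last locus of that row, had 10781 (10196 to 11391) and 3546 (3147 to 3982). Their ratios of 0.362 and 3.04 differ 8.41-fold. JNnc_loci0696 (81 nt), which lies between them, had only 7 reads in stage 2 and 11 in stage 1, so levels within 1 short row ranged from a handful of reads to 1270.

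On chromosome 2 (634045 to 634885, plus strand), JNnc_loci0157 (76 nt) had 195 reads in stage 2 and 63 in stage 1, a ratio of 2.12 (1.59 to 2.86). The next loci downstream went the other way: JNnc_loci0158 (80 nt) had 4 and 12 reads, and JNnc_loci0159 had 9 and 42. The fold between the highest and lowest ratio was 14.4. On chromosome 3 (31197247 to 31197579, plus strand), JNnc_loci0440 (77 nt) had 49 reads in stage 2 and 58 in stage 1, at 0.578 (0.387 to 0.861), beside JNnc_loci0441 at 5.79, with intervals far apart. On chromosome 1, JNnc_loci0001 (87 nt) had 23 and 21 reads at 0.75 (0.397 to 1.42) beside JNnc_loci0002 with its single stage 1 read, and the fold of 31.0 between them rests on that read.

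A pair of neighbouring rows on the plus strand of chromosome 12, 1125 nt apart, showed the same order of sizes and of ratios. The first (23409137 to 23409843) held loci of 97, 81, 77 and 137 nt and the second (23410969 to 23411747) loci of 93, 81, 77 and 138 nt. JNnc_loci1264 and JNnc_loci1268, the first of each row, had ratios of 0.577 (0.488 to 0.682) and 0.787 (0.633 to 0.978). JNnc_loci1265 and JNnc_loci1269, second in each row, were lower still in stage 2, with 28 and 33 reads against 46 and 69 in stage 1 and ratios of 0.417 (0.251 to 0.681) and 0.327. JNnc_loci1266 and JNnc_loci1270, next in each row, were higher in stage 2, with 88 and 64 reads against 27 and 19 and ratios of 2.23 (1.44 to 3.57) and 2.31 (1.36 to 4.08). Relative to the median locus they were at 1.61 (1.03 to 2.58) and 1.66 (0.983 to 2.94), so the interval of JNnc_loci1270 then held 1. The last loci, JNnc_loci1267 and JNnc_loci1271, are longer than 99 nt and stood at 1.58 (1.20 to 2.08) and 1.46 (1.04 to 2.07). Whether reads were shared between the rows was not tested. The rows were picked out after their values were seen.

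On chromosome 4 (28966441 to 28966845, plus strand) 3 members alternated. JNnc_loci0589, JNnc_loci0590 and JNnc_loci0591 (73, 79 and 91 nt) had 127, 215 and 172 reads in stage 2, against 268, 85 and 217 in stage 1. The middle locus was higher in stage 2, at 1.73 (1.34 to 2.25), and the outer loci were lower, at 0.324 and 0.543 (0.442 to 0.666). Relative to the median locus the middle one was at 1.25 (0.966 to 1.62), an interval that holds 1. A similar alternation on chromosome 8 had JNnc_loci0924, JNnc_loci0925 and JNnc_loci0926 (79, 87 and 79 nt) at 0.842 (0.649 to 1.09), 1.87 (1.52 to 2.33) and 0.408.

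**Figure D4:**
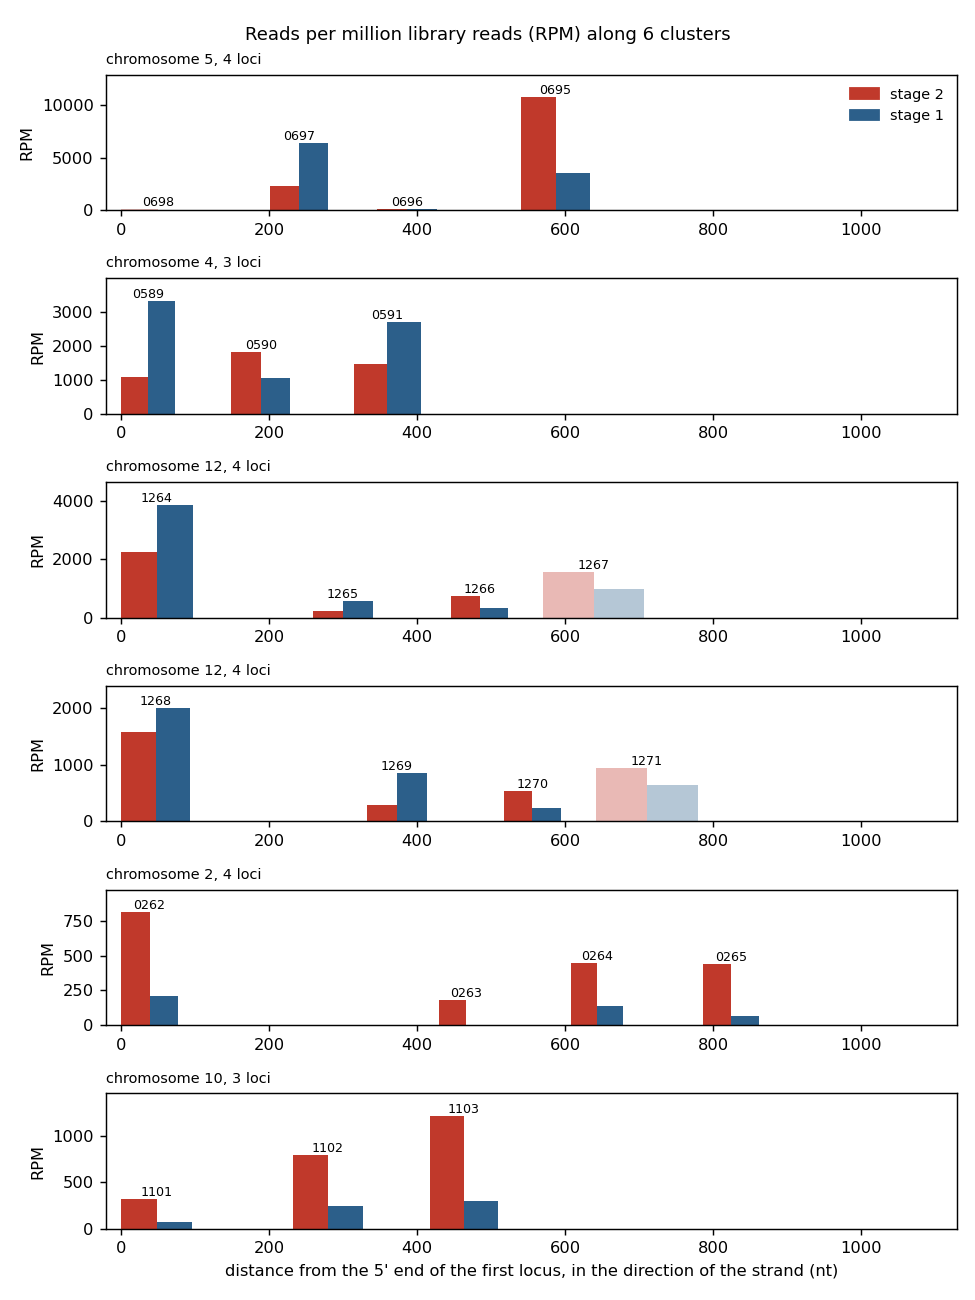
Reads per 1000000 library reads (RPM, y axis, scale differs between panels) in stage 2 (red, left side of each bar) and stage 1 (blue, right side) along 6 clusters, against distance in nt from the 5′ end of the first locus (x axis), with bar width equal to locus length and pale bars for loci outside the size range. In the upper 4 panels loci of 1 row, such as JNnc_loci0697 and JNnc_loci0695, have ratios with intervals on opposite sides of 1. Relative to the median locus this held for the rows that hold JNnc_loci0695 and JNnc_loci1264, but not for those of JNnc_loci0589 and JNnc_loci1268. In the lower 2, with JNnc_loci0262 to JNnc_loci0265 and JNnc_loci1101 to JNnc_loci1103, stage 2 is higher at every locus.

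Other rows were uniform in direction, though the ratios of the first row below differed up to 2.16-fold. In the row of 4 on chromosome 2 (30266722 to 30267583, plus strand), JNnc_loci0262 to JNnc_loci0265 had 96, 21, 53 and 52 reads in stage 2, against 17, 0, 11 and 5 in stage 1. All 4 were higher in stage 2, and the summed ratio was 4.61 (3.19 to 6.86), or 3.32 relative to the median locus. On chromosome 10 (11508428 to 11508936, plus strand), JNnc_loci1101, JNnc_loci1102 and JNnc_loci1103 (96, 95 and 92 nt) had 38, 94 and 143 reads in stage 2, against 6, 20 and 24 in stage 1, with a summed ratio of 3.77 (2.78 to 5.2). JNnc_loci0980 and JNnc_loci0981 on chromosome 8 (97 and 89 nt) had 513 and 149 reads in stage 2, against 91 and 29 in stage 1, at 3.86 (3.08 to 4.88) and 3.52 (2.35 to 5.43). These and the row of JNnc_loci0986 were 4 of the 37 clusters with at least 2 members of 20 reads or more. In only these 4 did every such member have its interval above the median locus.

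The remaining rows of 4 members stood closer to the median locus. JNnc_loci0043 to JNnc_loci0046 on chromosome 1 had 351, 19, 1252 and 630 reads in stage 2, against 205, 4, 654 and 355 in stage 1. Their summed ratio was 1.27 (1.18 to 1.36), and the 3 abundant loci had overlapping intervals, at 1.17, 1.31 and 1.22. JNnc_loci0445 to JNnc_loci0448 on chromosome 3 had 740, 551, 231 and 510 reads in stage 2, against 335, 277, 169 and 203 in stage 1. There JNnc_loci0447 was lowest at 0.936 (0.764 to 1.15) and JNnc_loci0448 highest at 1.72 (1.46 to 2.03), with intervals that lay apart.

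The row on chromosome 6, JNnc_loci0725 to JNnc_loci0728, split into an inner and an outer pair. The inner loci JNnc_loci0726 and JNnc_loci0727 were at 2.09 (1.73 to 2.53) and 2.13 (1.44 to 3.24), with 445 and 106 reads in stage 2 against 146 and 34 in stage 1. The outer loci JNnc_loci0725 and JNnc_loci0728 were at 1.26 (0.956 to 1.66) and 1.08 (0.840 to 1.41). On chromosome 8, JNnc_loci0932, JNnc_loci0933 and JNnc_loci0934 (84, 83 and 82 nt) had nearly the same counts, 48, 56 and 41 in stage 2 and 21, 25 and 18 in stage 1, and ratios of 1.56, 1.53 and 1.56. The fourth locus of that row, JNnc_loci0935 (78 nt), had 127 and 101 reads at 0.861 (0.658 to 1.13). On chromosome 5, JNnc_loci0659 to JNnc_loci0662 had 548, 56, 12 and 36 reads in stage 2, against 335, 26, 14 and 11 in stage 1, and no pair of their intervals lay apart.

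Reads within a row were uneven as well. In the 43 clusters with at least 2 members, the member with most reads had 4.21 times as many as the one with fewest at the median (range 1.14 to 200.4), and at least 10 times as many in 13 clusters. Among the 28 of these clusters with 3 or 4 loci, counted in the direction of the strand and over all loci of the row, the strongest member was the first locus in 10, the last in 6 and an inner one in 12. In the 15 clusters of 2 it was the first in 7 and the last in 8. These folds were not divided by length, which differed within some rows, as between JNnc_loci0348 (76 nt) and JNnc_loci0350 (99 nt). No such counts were made for other clusters.

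Members missing from a library were weakly covered. The 8 with 0 stage 1 reads had 2 to 21 reads in stage 2. Besides JNnc_loci0263, JNnc_loci1106 (83 nt, chromosome 10) had 15 and JNnc_loci0385 (97 nt, chromosome 3) had 14. Against the floor of 3 reads they were 3.42-fold and 3.20-fold higher, and the intervals of their ratios started at 2.46 and 2.27. JNnc_loci0288 (99 nt, chromosome 3) and JNnc_loci0849 (84 nt, chromosome 7) had 7 and 2 reads in stage 1 and 0 in stage 2. The floor is 25.5 RPM in stage 2 and 37.2 in stage 1, so absence from a list does not show absence of the RNA.

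Members were then set beside the classes that share their size or their arrangement; loci are not replicates of a stage, so these are counts without a test. Of the 245 single nuclear loci of 70 to 99 nt, 64 (26.1%) were in both lists and 28 (11.4%) had at least 20 reads, and together they took 2.98% of stage 2 reads and 1.59% of stage 1 reads. Their ratio of summed reads was 1.87 (1.76 to 2.00). The 100 nuclear loci of 100 to under 200 nt in small clusters resembled the members in these counts, with 89 in both lists, 80 with at least 20 reads and a ratio of 1.33 (1.3 to 1.36). Of those 80, 33 reached 2-fold higher in stage 2 and 0 reached 2-fold lower, while the members had 34 and 7 of 107 and all 483 loci of that depth had 159 and 56. Relative to the median locus the counts were 11 and 5 of the 80, 18 and 15 of the 107, and 88 and 107 of the 483.

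**Figure D5:**
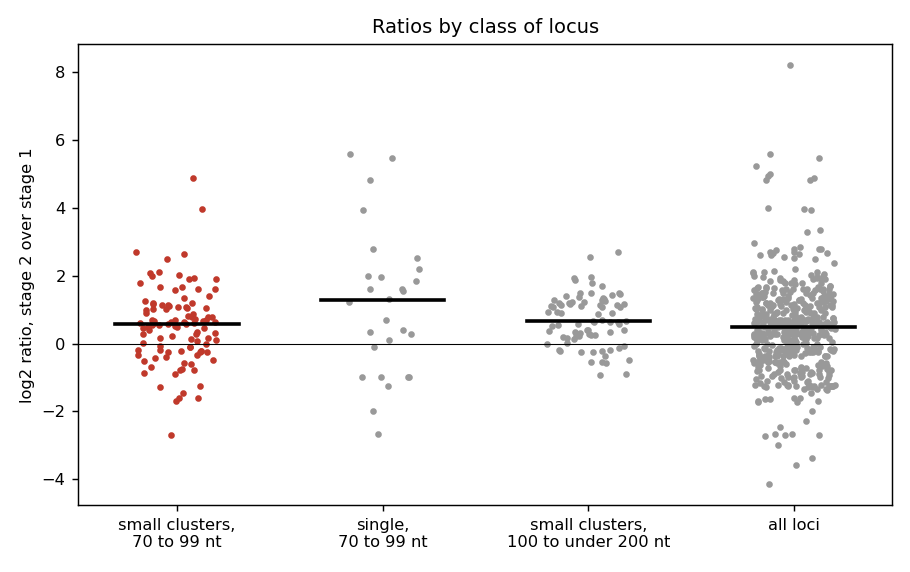
Log2 ratio (stage 2 over stage 1, 0.5 reads added) of each locus with at least 20 reads, for the 107 members, 28 single nuclear loci of the same size, 80 small-cluster loci of 100 to under 200 nt, and all 483 loci, with the median as a black bar. The medians are 0.58, 1.28, 0.66 and 0.47, and all classes overlap widely.

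Loci with the same length and the same counts in both libraries may hold the same reads, counted more than once. Among the members 8 had such a counterpart, and none of the 8 had 20 reads. They include JNnc_loci0657, JNnc_loci0867 and JNnc_loci0957, all of 71 nt with 2 reads in stage 2 and 0 or 1 in stage 1, which match 10, 13 and 13 other loci. JNnc_loci0848 and JNnc_loci0850 on chromosome 7, both of 80 nt, came close, with 157 and 153 reads in stage 2 and 126 and 122 in stage 1. Whether reads of such near copies were split or repeated is not stated.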

How the data were processed

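The authors deposited 1 position list per library, without a header, giving position, name, strand and a whole number for each locus. The whole numbers were read as counts of reads per locus, deposited without normalization; this rests on the values. Not given in the sources used here are the aligner, the genome build, the locus rule and how reads matching several places were counted. Starts were raised by 1 (BED convention assumed), lengths are end minus start, and a locus missing from a list was given 0 reads.

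The lists were joined by name and loci chained at gaps of at most 500 nt per strand. RPM were computed per 1000000 listed reads. Ratios of RPM carry exact conditional binomial intervals, RPM values exact Poisson intervals and shares exact Clopper-Pearson intervals, all at 95%; they treat reads as independent molecules. Calls by fold used 2 and 0.5 at a minimum of 20 reads over both libraries. Intervals were checked on simulated Poisson counts, the model they assume, without variation between libraries or shared reads. This tests the computation and not whether the model holds for these data. Python 3.11.15, pandas 2.3.3 and scipy 1.17.1 were used.

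Members and lists were chosen with earlier results of these data known. Values are printed for the 12 members with most reads, the 6 highest and 6 lowest ratios (0 stage 1 reads ranked first), members with 0 reads in a library and at least 10 in the other, clusters of 4 members and the 4 clusters with the largest fold between members; other loci named were chosen after their values were seen. Alternatives covered chaining distance, repeated loci, scaling, read minimum and pseudocount.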

Additional observations from a re-analysis of the deposited data

How the results depend on the processing

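Scaling to the median locus had the largest effect. The ratio of the members' summed reads fell to 0.980, with an interval that then held 1 (0.960 to 1.0005). That of small-cluster loci of 100 to under 200 nt reversed to 0.958 (0.933 to 0.982), while single loci of 70 to 99 nt moved to 1.35. The number of members at least 2-fold higher in stage 2 became 18 and the number at least 2-fold lower 15, and the median log2 ratio became 0.11, all by construction of the scaling. Among named members, JNnc_loci0045, JNnc_loci0046 and JNnc_loci0446 crossed 1, to 0.944 (0.859 to 1.04), 0.875 (0.767 to 0.9999) and 0.981 (0.848 to 1.14). The intervals of JNnc_loci0045 and JNnc_loci0446 then held 1. Another 4 also crossed 1, though their interval had held 1 before the scaling. Of the 39 that did not cross, 22 stayed within their interval and 17 moved outside it. Without the member with most reads the ratio of summed reads was 1.31, and without the 4 with most reads 1.29, because these hold a large part of the reads. With at least 10 reads required, 97.4% of members were in both lists, and the share over all loci of that depth was not computed. The other 35 alternative values, over the chaining distances, repeated loci, read minimums, pseudocount and spacing tolerance, with the fold within clusters under median scaling, stayed within the interval or within 1.5 times the value. The scaling of the other classes, the spacing search itself and its wider tolerance of 10 nt, which gave 20 matches on the same chromosome and 17 on others, were added after seeing the data. No paired analysis was possible because neither stage was sequenced more than once, and therefore no library could be left out. Depth limits the 21 members with fewer than 20 reads.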

Other observations

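A stretch on the plus strand of chromosome 10, from 12722626 to 12728590, held 7 loci of 67 to 94 nt that were almost absent from stage 1, a stretch picked out after the values were seen. The members JNnc_loci1106, JNnc_loci1107, JNnc_loci1108 and JNnc_loci1110 had 15, 5, 4 and 8 reads in stage 2, against 0, 0, 2 and 0 in stage 1. The other loci there, JNnc_loci1105, JNnc_loci1109 and JNnc_loci1111, had 35, 12 and 4 reads in stage 2 and none in stage 1. The 7 loci summed to 83 reads in stage 2 and 2 in stage 1, a ratio of 28.4 (7.62 to 239), and the 4 members alone to 32 and 2, a ratio of 11.0 (2.79 to 94.3). Without JNnc_loci1105 the ratio was 16.4 (4.31 to 140). All of these loci except JNnc_loci1108 were listed through stage 2 alone. The choice of stretch and loci thus pushed these ratios up, and the intervals do not account for it. Spacing of snoRNA genes matched the row of JNnc_loci1106 to JNnc_loci1108. Reads per locus are few, and whether the loci belong to 1 transcript was not tested.

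Members higher in stage 2 were spread over many rows. The 34 at least 2-fold higher lay in 25 of the 49 clusters that had a member with at least 20 reads. Of the 30 with another such member in their cluster, 6 stood beside one whose interval lay below 1, against 22 of all 95 such members. Relative to the median locus 18 members were at least 2-fold higher.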
